A study of Zea mays with 10 samples.

Results

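A total of 412 of the 109874 maize genes in the expression table had no name in the table, lay outside chromosome 6, and combined a level below 0.3 RPKM in *lbl1* apices with at least 5 RPKM in B73 apices. RPKM expresses read numbers per unit of transcript length and per unit of sequencing depth. These 412 genes are 2.38% of the 17290 unnamed genes outside chromosome 6 at 5 RPKM or more in B73. The genes were chosen by these 2 RPKM values, which are therefore given as descriptions, without a test. In *lbl1*, 397 of the genes were listed at 0 RPKM and 15 lay above it.

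The tissue was the vegetative shoot apex, the meristem with its youngest leaf primordia, of 2-week-old seedlings. Mutants carried *lbl1-rgd1*, an allele crossed into the inbred line B73 at least 3 times and kept in segregating families, and the wild type was B73. Each genotype had 2 mRNA libraries, which the authors merged into 1 RPKM value per gene, so no spread between samples can be given for any value. The 3 small RNA libraries of each genotype were not analysed here.

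The *leafbladeless1* (*lbl1*) gene encodes the maize counterpart of SUPPRESSOR OF GENE SILENCING3, an RNA-binding protein that stabilises cleaved precursor transcripts until they are copied into double-stranded RNA. Dicer enzymes then cut this RNA into trans-acting siRNAs, among them the tasiR-ARFs, which limit transcripts of ARF3 transcription factors and so help to set the upper and lower sides of the leaf. Loss of this protein therefore removes a class of small RNAs that repress their targets. Plants that carry an introgressed allele can also keep sequence of the donor line, and an effect of the mutation and one of such sequence cannot be told apart in these data. In bulk tissue, fewer cells of a type and less RNA per cell cannot be told apart either.

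The *lbl1* transcript itself (GRMZM2G020187) was at 226 RPKM in *lbl1* and 301 RPKM in B73. Of 8 fixed names of shoot meristem markers, 3 were in the table, and all were above 1 RPKM in both genotypes. The receptor gene *fea2* was at 15.8 RPKM in *lbl1* and 20.3 RPKM in B73. The 14 leaf primordium names matched 5 genes, 2 of them by the same name, *wox3A*. Of these 5 genes, 3 reached 1 RPKM in *lbl1* and 5 in B73. *RS2* was at 39.0 RPKM in both genotypes, and the other 4 had lower values in *lbl1*, among them *kan1* with 0.282 RPKM in *lbl1* and 4.06 RPKM in B73 and *mwp1* with 3.84 RPKM in *lbl1* and 6.97 RPKM in B73. Their part in the values of the 412 genes was not tested. Of 9 names for mature leaf photosynthesis 2 were found, *CAB1* at 61.3 RPKM in *lbl1* and 40.5 RPKM in B73 and *PEP1* listed at 0 in both. Of 17 names for endosperm and pollen 5 were found, and all but *bt2*, at 34.4 RPKM in *lbl1* and 25.0 RPKM in B73, were at 1.26 RPKM or less. Over the 24760 genes at 1 RPKM or more in both genotypes, the median log2 ratio of *lbl1* over B73 was −0.10. The RPKM values of all genes summed to 1047000 in *lbl1* and to 1026000 in B73.

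The description of these genes as silent in *lbl1* holds for their values, but the genes themselves were mostly of an unusual kind. Their loci had a median length of 118 bp and ranged from 75 to 98191 bp, and 242 were shorter than 150 bp. A locus in the table is the stretch covered by a gene and by any genes that overlap it, so 3 kinds could be told apart. The first kind comprised 287 genes (69.7%) that were alone in a locus under 200 bp. The second comprised 94 genes (22.8%) in 93 loci shared with at least 1 other gene, against 27.9% among all unnamed genes outside chromosome 6 at 5 RPKM or more in B73. Only 31 genes (7.52%) were alone in a locus of 200 bp or more.

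B73 levels of the 412 genes ran from 5.05 to 216 RPKM with a median of 13.0 RPKM, and the quartiles were 7.84 and 30.1 RPKM. At least 10 RPKM was reached by 254 genes and at least 50 RPKM by 50. Those above 50 RPKM were 46 genes in lone short loci, 3 in shared loci and 1 in a lone longer locus. The median B73 level was 16.2 RPKM in lone short loci, 9.61 RPKM in shared loci and 7.52 RPKM in lone longer loci. All 287 genes in lone short loci were listed at 0 RPKM in *lbl1*, as were 80 genes in shared loci and 30 in lone longer loci.

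**Figure D1:**
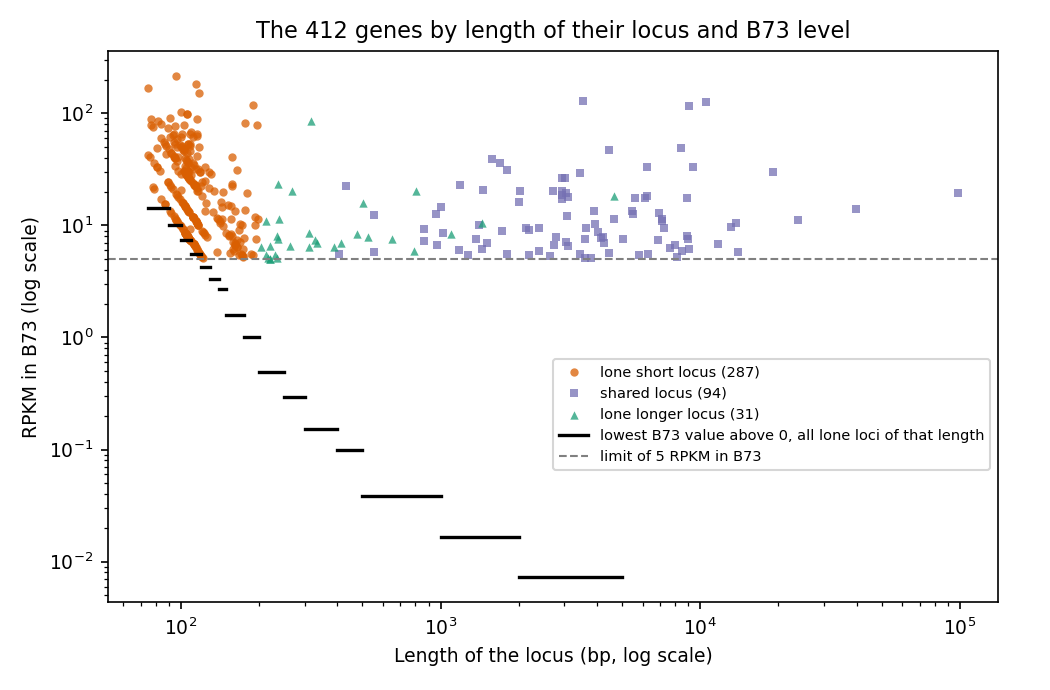
B73 level in RPKM (log scale) of the 412 genes against the length of their locus in bp (log scale). Colours and shapes mark the 3 kinds of locus, black bars give the lowest B73 value above 0 among all lone loci of that length range, and the dashed line is the limit of 5 RPKM. The lowest value falls with length from 14.3 RPKM at 75 to 89 bp and meets the limit of 5 RPKM near 120 bp.

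Very few of these genes had a counterpart in the reference annotation. One of the 412 genes (0.243%) matched a RefSeq gene of the NAM-5.0 assembly through its identifier, against 10493 (62.2%) of the 16878 other unnamed genes outside chromosome 6 at 5 RPKM or more in B73. The single match was GRMZM2G335111, listed there as LOC100283815. Its match carried no description, so no function is given for it or for any other of the 412 genes. All lone loci under 200 bp in the table behaved alike in this respect, since 3 of 18070 had a match. Identifiers that begin with GRMZM2G belonged to 327 of the 412 genes, including 277 of the 287 in lone short loci. GRMZM5G identifiers belonged to 51 genes, 46 of them in shared loci, which is 48.9% of the genes in shared loci. The remaining 34 had AC clone identifiers.

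The genes with the highest B73 levels were mostly in lone short loci, which made up 16 of the first 20. GRMZM2G565017 (chromosome 2, 109769937 to 109770032, 96 bp) was listed at 0 RPKM in *lbl1* and at 216 RPKM in B73. GRMZM2G487960 followed on the same chromosome (38871442 to 38871555, 114 bp) with 0 RPKM in *lbl1* and 182 RPKM in B73. GRMZM2G556096 (chromosome 3, 23441075 to 23441149), at 75 bp among the shortest loci, was at 0 RPKM in *lbl1* and 170 RPKM in B73. GRMZM2G490024 (chromosome 10, 49137421 to 49137538, 118 bp) had 0 RPKM in *lbl1* and 153 RPKM in B73. AC214039.3_FG005 (chromosome 5, 190 bp) was next in a lone short locus, with 0 RPKM in *lbl1* and 119 RPKM in B73.

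The 11 further genes of this kind among the first 20 lay between 78.3 and 103 RPKM in B73 and were all at 0 RPKM in *lbl1*. GRMZM2G557908 (chromosome 3, 100 bp) was at 103 RPKM in B73. GRMZM2G572064 on chromosome 7 and GRMZM2G587348 on chromosome 8, both 106 bp long, had the same B73 value of 98.6 RPKM. GRMZM2G559650, GRMZM2G591497, GRMZM2G486160 and GRMZM2G505663 lay between 86.1 and 91.2 RPKM in B73. GRMZM2G579197, GRMZM2G526111, GRMZM2G000011 and GRMZM2G583151 closed the group with 81.5, 79.7, 78.8 and 78.3 RPKM in B73.

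Identical values occurred among the short loci, and RPKM took few distinct levels at some lengths. In B73 the 15 lone loci above 0 at 106 bp had 7 distinct values, whereas all 7 at 101 bp were distinct. Of the 287 genes, 98 had exactly the B73 value of another of the genes with the same length. This share was not taken for other short loci. At 106 bp, the 8 genes GRMZM2G486040, GRMZM2G490488, GRMZM2G505620, GRMZM2G511075, GRMZM2G549733, GRMZM2G550089, GRMZM2G554659 and GRMZM2G588847 all had 8.12 RPKM in B73. At 107 bp, GRMZM2G497538, GRMZM2G500403, GRMZM2G541059, GRMZM2G542133 and GRMZM2G570308 shared 7.87 RPKM in B73, while GRMZM2G538518 and GRMZM2G542942 shared 13.4 RPKM, GRMZM2G513908 and GRMZM2G574818 shared 26.9 RPKM, and GRMZM2G511693 and GRMZM2G578645 shared 53.8 RPKM. All of these genes were at 0 RPKM in *lbl1*. The *lbl1* values above 0 at 107 bp were 10.3, 20.6 and 30.9 RPKM, with 1 further locus at 10.5 RPKM.

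Some of the genes lay at the lowest level that their length showed above 0, with a share close to that of all lone loci of these lengths. A lowest value could be taken for 269 of the 287 genes, those with a length at which 3 or more lone loci were above 0 in B73. Of these, 74 were at the lowest B73 value for their length, 124 at up to 2 times that value and 214 at up to 5 times. Over all lone loci above 0 in B73 at such lengths, these genes included, 163 of 615 were at the lowest value. Shares at up to 2 and up to 5 times were not taken over all loci. For the 269 genes the median was 2.8 times and the highest 104 times. At such lengths 249 of 444 *lbl1* values above 0 were whole multiples of the lowest one within a tolerance of 0.1%, of which 138 were that lowest value itself. In B73, 179 of 615 values were whole multiples, of which 163 were the lowest value, so the higher B73 levels were mostly not whole multiples of the lowest. The lowest value above 0 in *lbl1* was a median of 1.31 times that in B73 over 77 lengths. The ratio ranged from 0.336 to 5.26 and was within 1% of the median at 38 of the lengths.

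**Figure D2:**
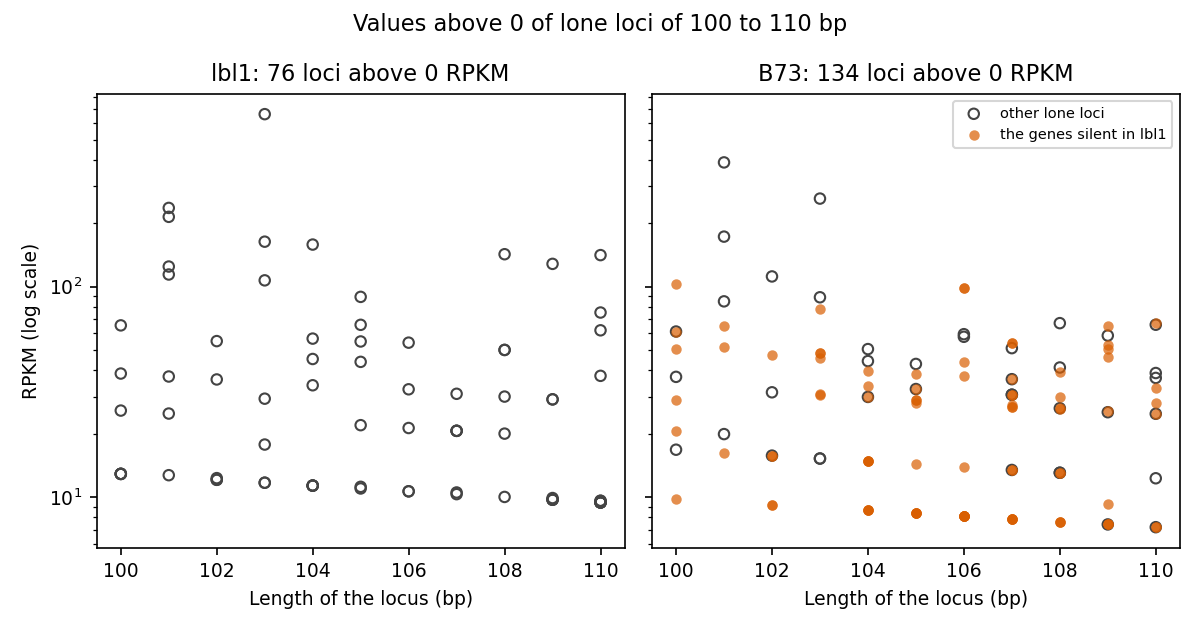
RPKM above 0 (log scale) of lone loci of 100 to 110 bp against locus length in bp, in *lbl1* (left) and in B73 (right). Each point is 1 locus, with the genes silent in *lbl1* filled in the B73 panel. At several lengths values coincide on shared rungs, the lowest being near 10.3 RPKM in *lbl1* and 7.87 RPKM in B73 at 107 bp.

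Below 120 bp any lone locus above 0 in B73 also met the limit of 5 RPKM. The lowest values above 0 there were 7.46 RPKM in *lbl1* and 5.54 RPKM in B73, and all 318 lone loci above 0 in B73 passed 5 RPKM. Of the 11996 lone loci of that length in the whole table, 205 were above 0 in *lbl1*, 318 in B73 and 83 in both, and 11556 were at 0 in both genotypes. Under 200 bp, 504 of 18070 lone loci (2.79%) were above 0 in *lbl1* and 658 (3.64%) in B73. The B73 number was 1.31 times the *lbl1* number. No lone locus under 200 bp had an *lbl1* value between 0 and 0.3 RPKM, so silence meant a listed 0 for every gene of this kind. The lowest B73 value above 0 fell from 9.82 RPKM at 100 bp to 1.0 RPKM at 198 bp, more steeply than length rose. RPKM levels of short and longer loci are therefore not directly comparable. The 658 short loci above 0 in B73 include the 287 silent genes, so that number is not independent of their count. By the median over lengths, the lowest value above 0 was lower in B73. The part of this in the count of silent genes was not tested.

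The share of genes silent in *lbl1* accordingly depended on the kind of locus. Among unnamed genes outside chromosome 6 at 5 RPKM or more in B73, 210 of 286 in lone loci under 120 bp (73.4%) met the *lbl1* limit. For lone loci from 120 to below 200 bp it was 77 of 198 (38.9%). It was 94 of 4816 (1.95%) in shared loci and 31 of 11990 (0.259%) in lone loci of 200 bp or more. These shares describe the choice itself and carry no test.

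The opposite pattern, at least 5 RPKM in *lbl1* and less than 0.3 RPKM in B73, was met by 330 unnamed genes outside chromosome 6, or 1.95% of 16915. In lone short loci there were 287 genes silent in *lbl1* and 183 silent in B73, a ratio of 1.57. Shared loci held 94 genes silent in *lbl1* and 70 silent in B73. Lone loci of 200 bp or more were the exception, with 31 genes silent in *lbl1* and 77 silent in B73. Of the 484 such genes in short lone loci at 5 RPKM or more in B73, 59.3% were silent in *lbl1*. Of the 381 at 5 RPKM or more in *lbl1*, 48.0% were silent in B73. For lone loci of 200 bp or more, the shares taken in the same way were 0.259% silent in *lbl1* and 0.651% silent in B73. The 2 directions use the same libraries, and whether their numbers differ beyond the spread between samples was not tested.

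**Figure D3:**
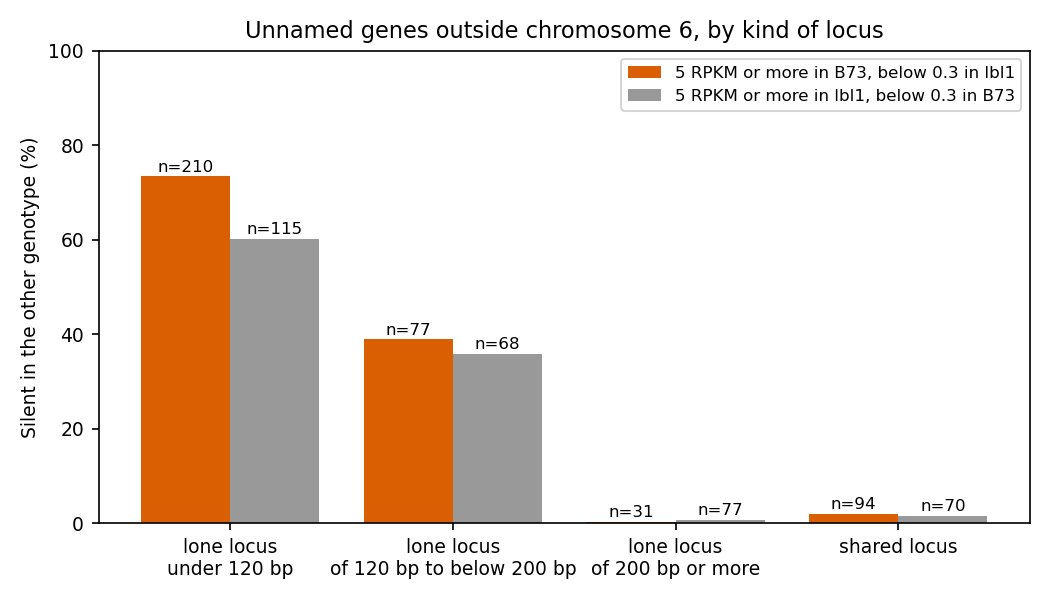
Percentage of unnamed genes outside chromosome 6 at 5 RPKM or more in one genotype that were below 0.3 RPKM in the other, by kind of locus. Orange bars are genes silent in *lbl1*, grey bars genes silent in B73, and n is the number of silent genes. Shares are 73.4% and 60.2% under 120 bp and below 2% in shared loci and in lone loci of 200 bp or more.

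Unnamed genes on chromosome 6, which carries *lbl1*, had another make-up by count. Outside that chromosome 69.7% of the 412 genes were in lone short loci and 7.52% in lone longer loci. On chromosome 6, 63 unnamed genes met the same limits, with 29 (46.0%) in lone short loci and 17 (27.0%) in lone longer loci. Among lone loci of 500 bp or more at 5 RPKM or more in B73, 8 of 11574 (0.0691%) were silent in *lbl1* outside chromosome 6, against 14 of 1042 (1.34%) on it.

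Most of the genes in shared loci had an expressed partner. The 93 shared loci held 116 partner genes, and 75 of the 94 silent genes had a partner at 5 RPKM or more in *lbl1*. For 9 more the highest partner was between 1 and 5 RPKM in *lbl1*, and for 10 no partner reached 1 RPKM. In B73 the highest partner was above the silent gene for 66 of the 94. These counts were not taken for other genes in shared loci, so whether they are particular to the silent genes is not known. Whether reads were divided differently between overlapping genes in the 2 genotypes was not tested.

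GRMZM5G815470 (in a locus on chromosome 8, 84356145 to 84359669) had the highest B73 level of this kind, with 0 RPKM in *lbl1* and 130 RPKM in B73. Its partner GRMZM2G151193 was at 366 RPKM in *lbl1* and 435 RPKM in B73. GRMZM2G370678 (chromosome 3, 32231159 to 32240210) was at 0 RPKM in *lbl1* and 116 RPKM in B73, and its partner GRMZM2G069827 at 174 RPKM in *lbl1* and 136 RPKM in B73. In both loci the partner was within 2-fold while the silent gene was listed at 0 in *lbl1*.

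GRMZM2G540219 (chromosome 5, 77927109 to 77937615) was different, with 0 RPKM in *lbl1* and 127 RPKM in B73 beside a partner, GRMZM2G097272, listed at 0 RPKM in both genotypes. GRMZM2G509771 on chromosome 10, at 0 RPKM in *lbl1* and 47.2 RPKM in B73, also had no partner above 0.543 RPKM in *lbl1*, the level of GRMZM2G047065, which was listed at 0 RPKM in B73. GRMZM2G522236 on chromosome 5 (0 RPKM in *lbl1*, 31.1 RPKM in B73) shared its locus with GRMZM2G065023, at 0.787 RPKM in *lbl1* and 0.519 RPKM in B73. These 3 are the silent genes with the highest B73 levels whose loci held no well expressed partner.

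**Figure D4:**
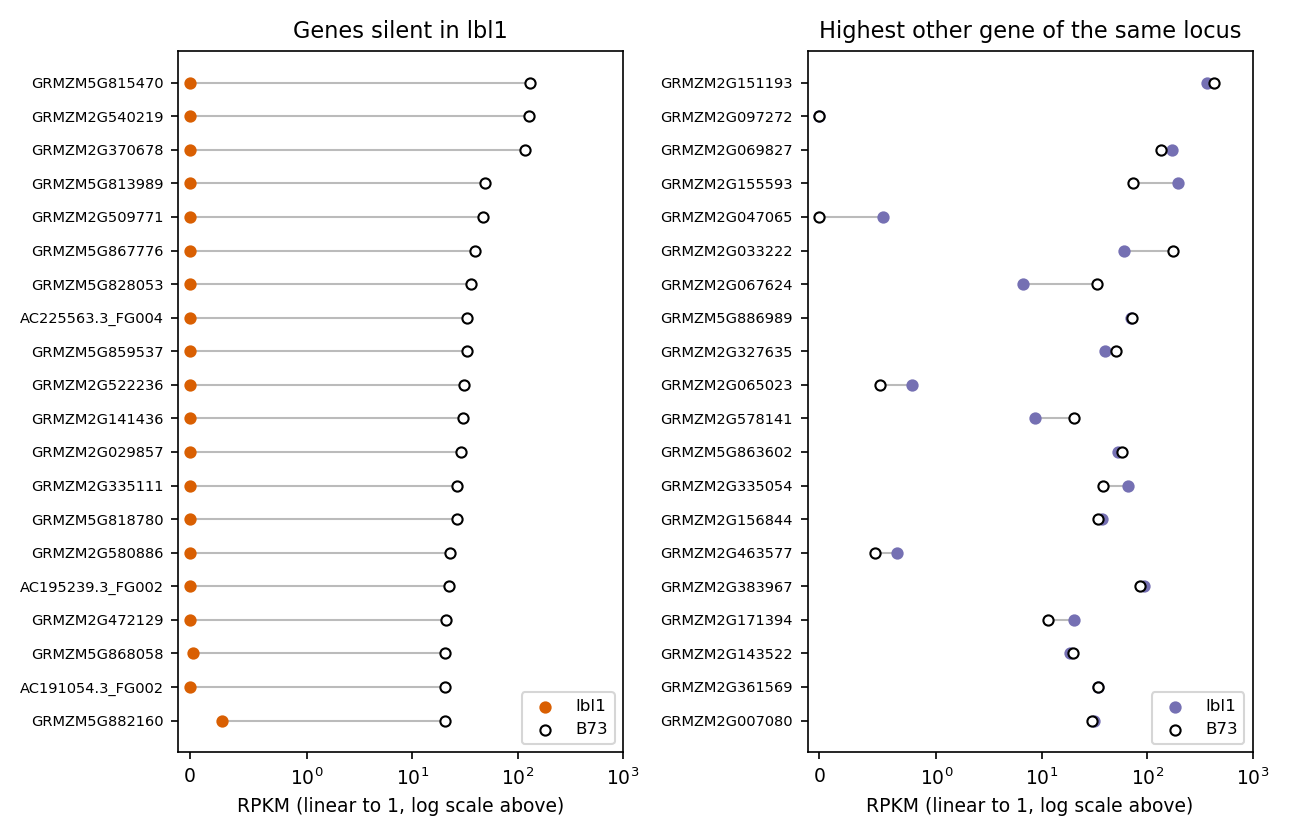
RPKM (linear to 1, log scale above) of the 20 genes in shared loci with the highest B73 levels (left) and of the partner with the highest B73 level in the same locus (right). Filled points are *lbl1*, open points B73, and each row is 1 locus. All genes on the left are below 0.3 RPKM in *lbl1*, while 16 of the partners on the right are above 5 RPKM in both genotypes.

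Named partners included genes of known function whose own levels were within 2-fold. GRMZM5G899228 (0 RPKM in *lbl1*, 13.5 RPKM in B73) overlapped *EIF5*, which encodes a translation initiation factor and was at 112 RPKM in *lbl1* and 165 RPKM in B73. GRMZM5G882384 (0 RPKM in *lbl1*, 8.10 RPKM in B73) shared a locus with *CDC5*, a MYB-related gene with roles in splicing, at 51.8 RPKM in *lbl1* and 61.7 RPKM in B73. A further gene of that locus, GRMZM5G826686, was not within 2-fold, with 11.4 RPKM in *lbl1* and 46.5 RPKM in B73. GRMZM5G872691 (0 RPKM in *lbl1*, 7.56 RPKM in B73) lay with *pac1*, a WD40 regulator of anthocyanin synthesis, at 12.8 RPKM in *lbl1* and 12.5 RPKM in B73.

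In a few loci the partner was also lower or higher in *lbl1*. GRMZM5G877428 (0 RPKM in *lbl1*, 7.51 RPKM in B73) shared a locus with *SCR*, the SCARECROW gene that patterns the endodermis and related cell layers, which was itself at 45.0 RPKM in *lbl1* and 101 RPKM in B73. GRMZM5G828053 (0 RPKM in *lbl1*, 36.0 RPKM in B73) overlapped GRMZM2G067624, at 6.64 RPKM in *lbl1* and 33.5 RPKM in B73. *SCR* and GRMZM2G067624 thus had lower values in *lbl1*, while the other gene in the *SCR* locus, GRMZM5G857119, was at 1.01 RPKM in *lbl1* and listed at 0 RPKM in B73. Partners differed in direction at GRMZM5G813989 (0 RPKM in *lbl1*, 49.4 RPKM in B73), where GRMZM2G155593 was at 195 RPKM in *lbl1* and 72.6 RPKM in B73, and GRMZM2G155626 at 4.62 RPKM in *lbl1* and 8.67 RPKM in B73.

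Levels of the 2 genes of a locus were exchanged between the genotypes at a site on chromosome 9 (25684569 to 25685125). AC194878.3_FG002 was at 0.266 RPKM in *lbl1* and 12.5 RPKM in B73, and GRMZM2G325168 in the same 557 bp at 11.5 RPKM in *lbl1* and 0.356 RPKM in B73. The authors' test is marked as failed for both genes of this locus, which limits what their values show. At GRMZM5G867464 (chromosome 8) the silent gene had 0.000414 RPKM in *lbl1* and 8.99 RPKM in B73, and its partner GRMZM2G077776 had 4.25 RPKM in *lbl1* and was listed at 0 RPKM in B73. GRMZM5G837732 on chromosome 1 (0 RPKM in *lbl1*, 5.51 RPKM in B73) lay with GRMZM2G472643, at 5.68 RPKM in *lbl1* and 0.984 RPKM in B73. In these 3 loci, 1 gene was higher in each genotype.

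Most partners had similar levels in both genotypes. Of the 100 partners at 1 RPKM or more in either genotype, 82 were within 2-fold, 7 (7.0%) were at least 2-fold lower in *lbl1* and 11 (11.0%) at least 2-fold higher. Among all 8395 genes at that level that share a locus, with the silent genes left out, 14.5% were at least 2-fold lower and 13.9% higher. The 100 partners had a median of 22.6 RPKM in *lbl1* and 26.4 RPKM in B73. Their median log2 ratio of *lbl1* over B73 was 0.04 over the 98 of these 100 that were above 0 in both genotypes.

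One locus held a pair of the silent genes. GRMZM5G817036 was at 0 RPKM in *lbl1* and 11.4 RPKM in B73, and GRMZM5G887523 at 0.165 RPKM in *lbl1* and 11.0 RPKM in B73. Their common partner on chromosome 3 (164967090 to 164974207), GRMZM2G004320, was at 13.5 RPKM in *lbl1* and 12.9 RPKM in B73.

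Of the 15 genes above 0 RPKM in *lbl1*, 14 were in shared loci, and their B73 levels were 26.0 to 21700 times their *lbl1* levels. The median log2 ratio of *lbl1* over B73 of the 15 was −7.69. The lowest *lbl1* value above 0 of any lone locus in the table was 0.00533 RPKM, and 5 of the 15 genes lay below it. Among these was GRMZM2G335111, the gene with a RefSeq match, at 0.00306 RPKM in *lbl1* and 26.7 RPKM in B73, beside GRMZM2G335054 at 66.1 RPKM in *lbl1* and 38.0 RPKM in B73. The status column marks the authors' test as failed for 5 of the 412 genes, all in shared loci (AC194878.3_FG002, AC212186.3_FG011, AC225563.3_FG004, GRMZM5G845538 and GRMZM5G860816). It marks the other 407 as OK, among them all 287 genes in lone short loci.

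The 31 genes alone in a locus of 200 bp or more were the least common kind. Their locus length had a median of 311 bp, with 15 from 200 to below 300 bp, 23 under 500 bp and 3 of 1000 bp or more. Only 9 reached 10 RPKM in B73. AC197775.3_FG001 on chromosome 3 (72796074 to 72796391, 318 bp) stood well above the others, with 0 RPKM in *lbl1* and 84.6 RPKM in B73. GRMZM2G503851 on chromosome 9 (237 bp) and AC209841.3_FG007 on chromosome 1 (269 bp) came next, at 0 RPKM in *lbl1* and at 23.6 and 20.3 RPKM in B73.

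**Figure D5:**
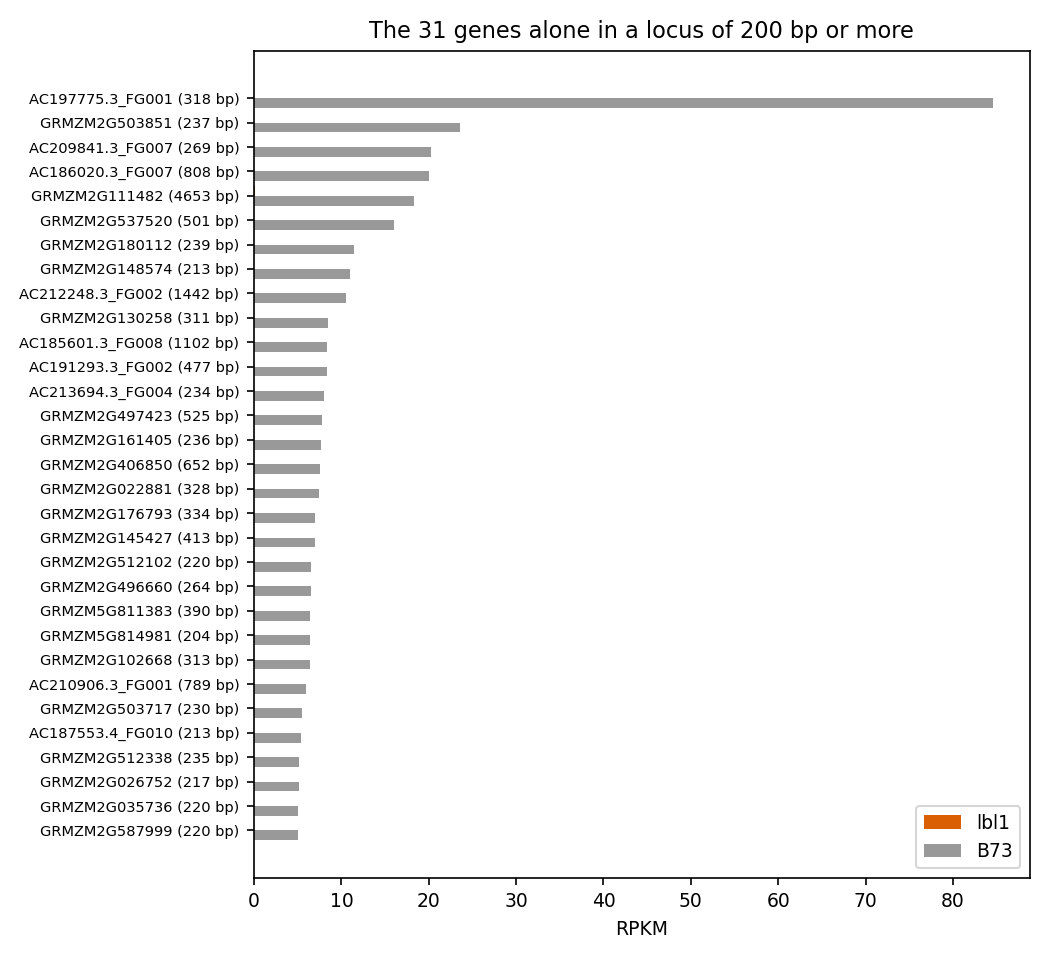
RPKM of the 31 genes alone in a locus of 200 bp or more in *lbl1* and B73, ordered by B73 level with the locus length in bp in brackets. Bars are the authors' value per genotype and have no error bars, and those of *lbl1* are at 0 RPKM except for GRMZM2G111482 at 0.0624 RPKM, too low to see. AC197775.3_FG001 reaches 84.6 RPKM in B73, and 22 of the 31 genes are below 10 RPKM in B73.

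The longest of these loci was GRMZM2G111482 on chromosome 10 (125836247 to 125840899, 4653 bp). It was at 0.0624 RPKM in *lbl1* and 18.3 RPKM in B73, which is 293 times the *lbl1* level. At this length values down to 0.0106 RPKM in *lbl1* and 0.00724 RPKM in B73 occurred among lone loci, so the step size that marks the short loci is small here. The nearest gene after it at 1 RPKM or more in either genotype, the histone deacetylase gene *hda113*, began 61701 bp away and was at 49.9 RPKM in *lbl1* and 57.2 RPKM in B73.

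AC186020.3_FG007 on chromosome 4 (175758579 to 175759386, 808 bp) was at 0 RPKM in *lbl1* and 20.1 RPKM in B73. It lay 1174 bp beyond GRMZM2G591497, a gene in a lone short locus at 0 RPKM in *lbl1* and 88.8 RPKM in B73. The nearest other gene before it at 1 RPKM or more was *LKRSDH*, which encodes the enzyme that begins lysine breakdown. *LKRSDH* was higher in *lbl1*, with 157 RPKM in *lbl1* and 20.3 RPKM in B73.

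AC212248.3_FG002 (chromosome 9, 1442 bp) and AC185601.3_FG008 (chromosome 1, 1102 bp) were at 0 RPKM in *lbl1* and at 10.5 and 8.39 RPKM in B73. GRMZM2G537520, GRMZM2G497423, GRMZM2G406850 and AC210906.3_FG001, of 501 to 789 bp, were also at 0 RPKM in *lbl1*, with 16.0, 7.82, 7.52 and 5.91 RPKM in B73. The catalase gene *CAT1*, 24979 bp after AC210906.3_FG001, was at 136 RPKM in *lbl1* and 99.4 RPKM in B73. Together with GRMZM2G111482 and AC186020.3_FG007 these are the 8 lone genes of 500 bp or more.

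The 412 genes were spread over the other 9 chromosomes, with 27 on chromosome 10 to 61 on chromosome 1. As a share of the unnamed genes at 5 RPKM or more in B73, they made up 1.99% on chromosome 5 to 3.09% on chromosome 7. Another of the genes began within 1 Mb of 165 of them, and 247 had none so near. There were 53 pairs and 18 stretches of 3 or more genes, each within 1 Mb of the next, which held 59 genes. Such counts were not taken for other genes, so whether the 412 genes lie closer together than others is not known.

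The stretch with the most genes had 6 and ran over 1.15 Mb of chromosome 9 (25557790 to 26708296). In order it held GRMZM2G533758, GRMZM2G180112, GRMZM2G444466, AC194878.3_FG002, GRMZM2G576436 and GRMZM2G538859. GRMZM2G576436 had the highest B73 level of these, 39.1 RPKM, and was at 0 RPKM in *lbl1*. Of 21 other genes of the stretch at 1 RPKM or more in either genotype, 2 were at least 2-fold lower in *lbl1*.

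A pair of stretches on chromosome 4 held 4 genes each. GRMZM2G590302 and GRMZM2G523103, both 96 bp long with 0 RPKM in *lbl1* and 11.2 RPKM in B73, lay with GRMZM2G532230 and GRMZM2G512102 between 159192397 and 161078837. GRMZM2G074677, GRMZM2G484968, GRMZM2G500403 and AC196971.3_FG001 lay between 222207663 and 223772524, at 0 RPKM in *lbl1* and 7.64 to 18.7 RPKM in B73. In these stretches 4 of 43 and 1 of 18 other expressed genes were at least 2-fold lower in *lbl1*.

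The other 15 stretches held 3 genes each. On chromosome 1 they were GRMZM2G536221, GRMZM2G466521 and GRMZM2G566553, and GRMZM2G526312, GRMZM2G495362 and GRMZM2G505162, on chromosome 2 GRMZM2G559671, GRMZM2G557766 and GRMZM2G487960, and AC213694.3_FG004, GRMZM2G573446 and GRMZM2G493079. Chromosome 3 had GRMZM2G583329, GRMZM2G583323 and GRMZM2G564613, chromosome 4 GRMZM2G574818, GRMZM5G871801 and GRMZM2G542133, and chromosome 5 GRMZM2G510568, GRMZM5G872691 and GRMZM2G518276. Chromosome 7 had 5 such stretches. They were formed by GRMZM2G102668, GRMZM2G547341 and GRMZM2G107455, by GRMZM2G536727, GRMZM2G576392 and GRMZM2G500431, by GRMZM2G550089, GRMZM5G842813 and GRMZM2G544561, by GRMZM2G572064, GRMZM2G552194 and GRMZM5G830094, and by GRMZM2G550837, GRMZM2G520807 and GRMZM2G520810. Chromosome 8 had GRMZM2G559650, AC200099.4_FG003 and GRMZM2G491912, and GRMZM2G556535, GRMZM2G579062 and GRMZM2G579064. On chromosome 10, GRMZM2G111482 and GRMZM2G406850 lay in 1 stretch with GRMZM2G589936.

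Only 7 times did the next locus of the set along a chromosome lie within 10 kb. GRMZM2G556394 and GRMZM2G556395 on chromosome 5, 1350 bp apart, were both at 0 RPKM in *lbl1* and at 47.9 and 53.6 RPKM in B73. GRMZM2G520807 and GRMZM2G520810 on chromosome 7, 2389 bp apart, were at 0 RPKM in *lbl1* and at 22.7 and 13.0 RPKM in B73. GRMZM2G535364 and GRMZM2G535366 on chromosome 1, 9908 bp apart, differed more, with 0 RPKM for both in *lbl1* and with 5.69 and 62.1 RPKM in B73.

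Expressed genes around the silent ones were at least 2-fold lower in *lbl1* in 11.0% of cases, against 12.9% among genes at large. The second share counts the 412 genes themselves, all of them lower by choice, whereas the first leaves them out. The 2 shares are therefore not directly comparable, and their difference was not tested. A share over genes at large without the 412 genes was not taken. Within 100 kb of the 412 genes lay 1766 other genes at 1 RPKM or more in either genotype, of which 195 were at least 2-fold lower in *lbl1* and 219 (12.4%) at least 2-fold higher. Over all 29929 genes at that level, the 412 genes included, 3849 were at least 2-fold lower, and 12.6% were at least 2-fold higher. The median log2 ratio of *lbl1* over B73 was −0.08 for the neighbours and −0.09 for all genes. Around the 31 genes in lone longer loci, 15.3% of 124 neighbours were at least 2-fold lower and 16.1% higher. In the 18 stretches, 35 of 337 other expressed genes (10.4%) were at least 2-fold lower.

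Genes on both sides of the limits had similar values. Just inside the B73 limit were GRMZM2G035736 and GRMZM2G587999, both 220 bp long with 0 RPKM in *lbl1* and 5.05 RPKM in B73, and GRMZM2G573682 with 0 RPKM in *lbl1* and 5.10 RPKM in B73. Just outside it were GRMZM2G308739, GRMZM5G863987 and GRMZM2G580742, at 0, 0.126 and 0 RPKM in *lbl1* and at 4.98, 4.87 and 4.83 RPKM in B73. Just inside the *lbl1* limit were GRMZM2G466399, GRMZM5G882160 and AC194878.3_FG002 with 0.289, 0.276 and 0.266 RPKM in *lbl1*, against 9.07, 20.4 and 12.5 RPKM in B73. Just outside it were GRMZM5G807962, GRMZM2G099070 and GRMZM2G095005 with 0.329, 0.330 and 0.352 RPKM in *lbl1*, against 7.61, 20.2 and 9.94 RPKM in B73. All 6 genes on either side of the *lbl1* limit were in shared loci.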

How the data were processed

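Per the labels and the methods of the study, the authors trimmed the mRNA reads and aligned them to B73 RefGen_v2 with TopHat 1.2.0. From uniquely mapped reads of both libraries of a genotype, Cuffdiff 1.0.3, with a minimum alignment count of 50, gave the deposited RPKM values, 1 per gene and genotype. The deposited fold changes, test statistics, p-values and q-values are the authors' own comparison and were not used. The number of reads per library was not used here, so no depth, interval or floor is given.

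Genes were chosen by the limits of 5 RPKM in B73 and 0.3 RPKM in *lbl1*, an empty name and a locus outside chromosome 6. The genes, gene lists and limits were chosen with earlier results of these data known. Loci were classed by length (200 bp) and by the number of genes that list the same locus, and 1 was added to locus starts, which the table counts from 0. Since the rule used the only contrast, no test was run. The text names the 20 genes with the highest B73 level, 3 genes on each side of each limit and the genes of stretches of 3 or more within 1 Mb, with their partners or near neighbours. The rule's functional groups named none, because the reference table held no descriptions. All other genes named were chosen after their values were seen. Counting steps were tested on simulated data. Python 3.11.15, pandas 2.3.3, numpy 2.4.6, scipy 1.17.1 and matplotlib 3.10.9 were used. Alternatives were other limits, scalings, pseudocounts and distances.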

Additional observations from a re-analysis of the deposited data

How the results depend on the processing

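The number of genes moved with the B73 limit, to 697 at 2 RPKM and 254 at 10 RPKM, against 412 at 5 RPKM. It was 397 with *lbl1* listed at 0, 418 below 0.5 RPKM, 439 below 1 RPKM, 425 with named genes kept, 411 and 412 after rescaling *lbl1* by the median ratio and by the 75th percentile, 318 in lone loci and 407 without failed tests. With alternatives chosen after seeing the data, 125 genes were in loci of 200 bp or more, and 31 in lone loci of that length. The median log2 ratio, −7.69 over the 15 genes above 0, was −3.81 over all genes with a pseudocount of 1 RPKM and −7.01 with 0.1 RPKM, so its size follows the pseudocount. Genes with another nearby numbered 165 within 1 Mb, 92 within 0.5 Mb, 243 within 2 Mb and 163 with 1 per locus, and 11 in loci of 200 bp or more (chosen after seeing the data). The share of neighbours at least 2-fold lower in *lbl1*, 11.0%, was 11.5% within 50 kb and 10.8% within 500 kb. It was 11.3% without genes of the same locus and 7.44% among neighbours at 5 RPKM or more in either genotype. The share over all genes at 5 RPKM or more was not taken, so the 7.44% has no background beside it. No paired analysis was possible because the table holds 1 value per genotype for both libraries, and for the same reason no library could be left out. Whether any of these genes is silent in each *lbl1* library is not known from the table.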

Other observations

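Among genes with a name in the table, 13 met the same limits, all of them microRNA precursor genes outside chromosome 6 and listed at 0 RPKM in *lbl1*. MicroRNAs are cut from such hairpin precursors, whose transcripts are short-lived. The highest were zma-MIR171k at 44.3 RPKM, zma-MIR159a at 37.5 RPKM and zma-MIR167d at 31.1 RPKM in B73. zma-MIR171e, zma-MIR171d and zma-MIR171b were at 28.5, 26.1 and 16.6 RPKM in B73, and zma-MIR2118b and zma-MIR2118c at 26.3 and 7.99 RPKM. zma-MIR393a, zma-MIR396f, zma-MIR169e, zma-MIR169j and zma-MIR172e lay between 5.06 and 19.2 RPKM in B73. In the opposite direction, zma-MIR169h at 40.6 RPKM and zma-MIR167g at 10.1 RPKM in *lbl1* were listed at 0 RPKM in B73. Of 156 microRNA genes named in the table, 15 were above 0 in *lbl1* and 29 in B73, and 8 reached 5 RPKM in *lbl1* and 18 in B73. Lone loci under 200 bp held 81 of the 156, so the steps described for short loci apply to many of them. None of the 642 other named genes at 5 RPKM or more in B73 was below 0.3 RPKM in *lbl1*, whereas 5 other named genes at 5 RPKM or more in *lbl1* were below 0.3 RPKM in B73. These are levels of precursor reads and not of mature microRNAs, and no test was run.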
